A study of Rattus norvegicus with 8 samples.

Results

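The genes described here are the 4 tissue inhibitors of metalloproteinases (TIMPs), 3 matrix metalloproteinases and 3 ADAMTS proteases, 10 of the 17309 genes measured. They are Timp1, Timp2, Timp3, Timp4, Mmp2, Mmp9, Mmp14, Adamts1, Adamts4 and Adamts15. All 10 were found on the array, through 94 probe sets that name one of them and no other gene. The set was proposed with the strain comparison known, because Timp4 and Adamts15 were lower in PD5. Values of the 10 genes between the strains are therefore a description. Where a call of the fit across all genes is printed for one of them, it is a count of that fit and is not read as a test of the gene.

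Gene expression was measured in the left ventricle of male rats at 2 months of age, with 1 whole-transcript array per animal. The strain SHR develops hypertension spontaneously, and its minimal congenic strain PD5 is SHR apart from a short introgressed stretch of chromosome. There were 4 animals of each strain, numbered 207, 209, 210 and 212 in PD5 and 213, 215, 218 and 219 in SHR. All 8 animals were bred in-house, ate standard chow and received no treatment, and no normotensive strain was included. Checked against the tissue label, the cardiomyocyte genes Myh6 and Tnnt2 lay at mean log2 values of 13.1 and 13.2 in both strains. Because the ventricle is a mixture of cells, fewer cells of a type and less RNA per cell cannot be told apart.

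The matrix metalloproteinases and ADAMTS proteases are zinc enzymes that cut collagens, proteoglycans and other proteins between cells. TIMPs bind in their active sites and block them, and the balance between enzymes and inhibitors is known to shape how the heart stiffens or dilates under pressure load. TIMP4 is known for high expression in the heart, and TIMP3 is the inhibitor that stays bound to the matrix and also blocks ADAMTS enzymes.

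Sequences around a start of Timp4 and Timp3 are shown because these were the 2 inhibitors whose strains did not overlap. Both come from RefSeq on the GRCr8 assembly and run 5′ to 3′ on the minus strand. Each covers 250 bases before to 50 after the start used. In RefSeq the Timp4 gene runs to 149985350, inside its window. The start used for Timp4 is therefore an inner one, and part of the bases before it lie within the gene. Capitals mark GC boxes, the letters GGGCGG on either strand.
Timp4, chr4:149985155-149985454: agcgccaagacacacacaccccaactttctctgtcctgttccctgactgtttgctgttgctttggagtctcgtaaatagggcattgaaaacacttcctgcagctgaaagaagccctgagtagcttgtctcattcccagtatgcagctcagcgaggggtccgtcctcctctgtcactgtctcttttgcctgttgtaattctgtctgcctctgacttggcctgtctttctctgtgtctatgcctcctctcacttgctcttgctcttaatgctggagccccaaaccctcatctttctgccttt
Timp3, chr7:19459509-19459808: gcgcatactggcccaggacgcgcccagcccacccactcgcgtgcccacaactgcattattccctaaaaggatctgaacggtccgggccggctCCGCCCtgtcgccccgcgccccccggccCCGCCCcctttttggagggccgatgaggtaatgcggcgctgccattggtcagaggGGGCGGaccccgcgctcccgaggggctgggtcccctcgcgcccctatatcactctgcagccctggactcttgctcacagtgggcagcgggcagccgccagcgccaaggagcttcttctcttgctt

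The table held 6 of the 10 genes, and 7 motifs were searched on both strands. These were the AP-1 site TGANTCA, the cAMP response element TGACGTCA, the NGFI-B response element AAAGGTCA, the glucocorticoid response half-site AGAACA, the E-box CACGTG, the GC box GGGCGG and the TATA box TATAAA. None of these letters occurred in the Timp4 window, whose GC content was 50.3%. That window covers the bases before the outer end of the gene only in part. The Timp3 window held 3 GC boxes and had a GC content of 68.7%, while the median over all 33469 promoters was 51.7%. Timp2 and Timp1 each held 1 GC box, Adamts1 held 2 GC boxes and a TATA box, and Adamts4 held no match. The minus-strand Timp1 gene runs to 3772578, beyond its window at 3771073 to 3771372, so its start was an inner one too. Of all promoters, 33.1% held a GC box and 14.2% a TATA box. The other shares were 7.33% for the AP-1 site, 1.83% for the cAMP response element, 1.43% for the NGFI-B response element, 20.7% for the half-site and 6.42% for the E-box.

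Among the inhibitors, Timp4 was the gene with the widest strain difference. Its gene value, the mean log2 value of its probe sets, was 8.60, 8.51, 8.50 and 8.70 in PD5 207, 209, 210 and 212. It was 9.51, 9.30, 9.82 and 9.91 in SHR 213, 215, 218 and 219. Every PD5 animal was below every SHR animal, and 0.60 log2 units separated the highest PD5 from the lowest SHR animal. PD5 averaged 8.58 ± 0.09 and SHR 9.63 ± 0.28 (SD, n = 4 each), a difference of -1.06 (SE 0.13) or 2.08-fold higher in SHR. The SHR animals spread more widely than the PD5 animals. Of the 10 genes, 1 (Timp4) passed an adjusted p of 0.05 in limma, against 0.052% of all genes (0.0289% lower and 0.0231% higher in PD5). As this contrast chose the genes, nothing is read from that count. The call also depended on the setting and was made in 4 of 15 alternatives, over which the difference of Timp4 ran from -1.29 to -0.90.

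Timp3 differed by far less and in the same direction. Its values were 11.01, 11.04, 10.87 and 11.06 in PD5 207, 209, 210 and 212, and 11.14, 11.15, 11.15 and 11.26 in SHR 213, 215, 218 and 219. The strains did not overlap, with a gap of 0.07. The difference was -0.18 (SE 0.07), and it was -0.11 without both PD5 210 and SHR 219, the arrays at the outer ends of the 2 groups. Timp2, which also serves in the activation of pro-MMP2, averaged 11.21 ± 0.05 in the PD5 and 11.24 ± 0.04 in the SHR animals (SD, n = 4 each). Its strains overlapped, and its difference of -0.03 (SE 0.06) was smaller than the SE.

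Timp1, an inhibitor that rises in injured and fibrotic tissue, rests on 2 probe sets that behaved unlike each other. The brighter one lay between 11.09 and 11.24 in PD5 and between 11.10 and 11.26 in SHR, with a difference of -0.01. The dimmer one ran from 4.40 to 6.15 in PD5 and from 4.96 to 5.72 in SHR. The gene difference of 0.06 (SE 0.16) thus carries the spread of the dim probe set, and its direction turned in 3 of 15 alternatives, among them that of the brightest probe set.

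**Figure D1:**
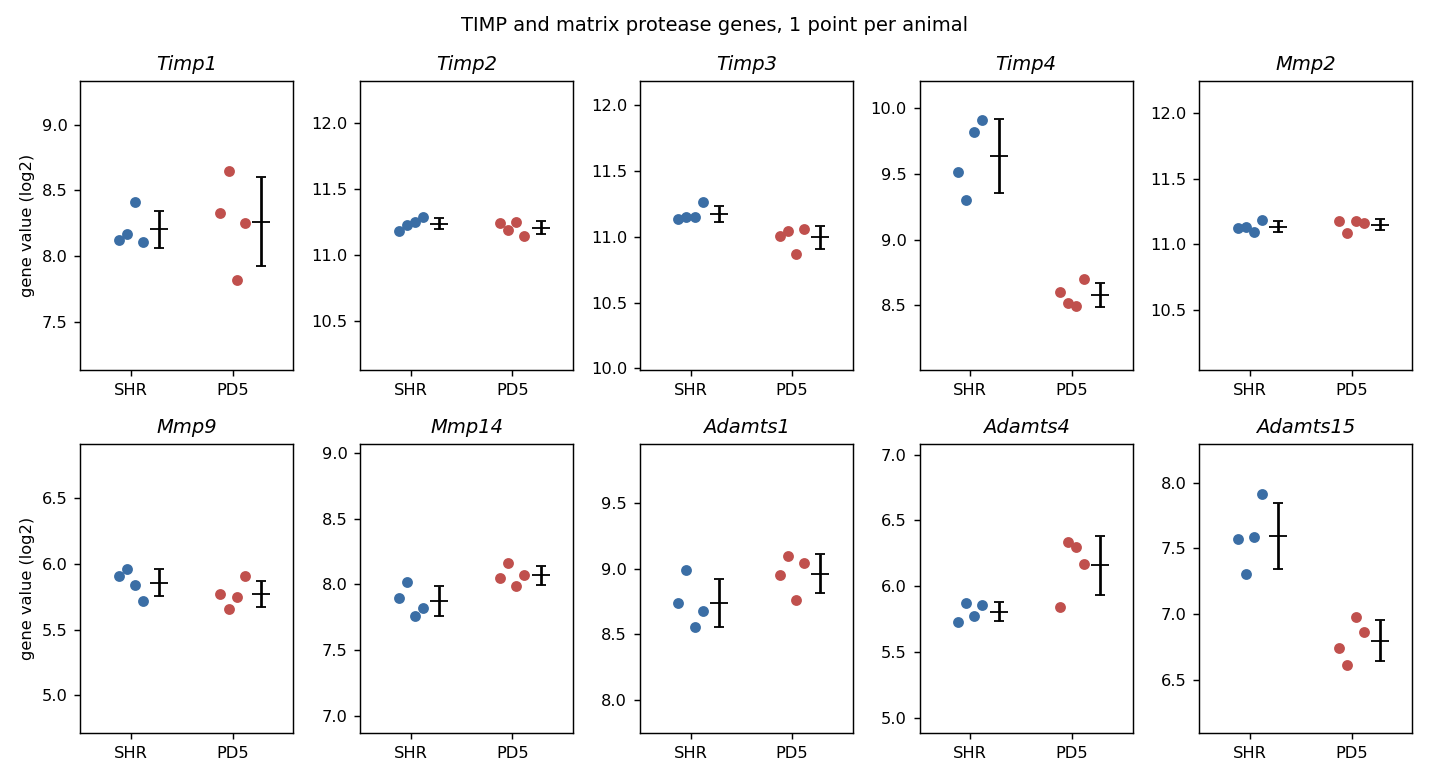
Gene values (log2, vertical axis) of the 10 genes in SHR and PD5, with 1 point per animal and a bar for the mean ± SD of 4 animals beside them. Each panel spans the same range of log2 units, and the strains are apart by 0.60 in Timp4, 0.32 in Adamts15 and 0.07 in Timp3.

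The metalloproteinases showed no strain difference of the size seen in Timp4. Mmp2, the gelatinase made by resident heart cells, averaged 11.15 ± 0.04 in the PD5 and 11.14 ± 0.04 in the SHR animals (SD, n = 4 each), with a difference of 0.02 (SE 0.06). Its direction turned in 2 of 15 alternatives. Mmp9, the gelatinase best known from neutrophils and macrophages, was at 5.77 ± 0.10 in PD5 and 5.86 ± 0.10 in SHR, a difference of -0.09 (SE 0.08). Its 13 probe sets ran from -0.76 to 0.74 in difference, and 4 of them were dimmer than 5.31, the 25th percentile of probe set means, so the gene value is a mean of unlike parts.

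Mmp14, a membrane-anchored enzyme that activates pro-MMP2, was somewhat higher in PD5. Its values were 8.05, 8.16, 7.99 and 8.07 in PD5 207, 209, 210 and 212, and 7.89, 8.02, 7.76 and 7.82 in SHR 213, 215, 218 and 219. The strains overlapped only in that SHR 215 was above PD5 210. The difference was 0.20 (SE 0.08), and 10 of 13 probe sets were higher in PD5.

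In the ADAMTS group, Adamts15 was lower in PD5 and the other 2 were higher. Adamts15, an enzyme known to cut the proteoglycan versican, was at 6.74, 6.61, 6.98 and 6.86 in PD5 207, 209, 210 and 212. It was at 7.57, 7.30, 7.59 and 7.91 in SHR 213, 215, 218 and 219. Every PD5 animal was below every SHR animal, with a gap of 0.32. PD5 averaged 6.80 ± 0.16 and SHR 7.59 ± 0.25 (SD, n = 4 each), a difference of -0.79 (SE 0.13) or 1.73-fold higher in SHR. Over 15 alternatives the difference ran from -0.90 to -0.64. With Timp4 and Timp3, Adamts15 made 3 of 10 genes with every PD5 animal below SHR, against 1.89% of all genes (1.59% with PD5 above SHR, 3.49% in either direction), a count fixed in part by how the genes were chosen.

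Adamts4, also named aggrecanase-1, was at 5.84, 6.33, 6.30 and 6.17 in PD5 207, 209, 210 and 212, and at 5.72, 5.87, 5.77 and 5.86 in SHR 213, 215, 218 and 219. Here PD5 207 lay among the SHR animals and the other 3 PD5 animals lay above all of them. The difference was 0.35 (SE 0.11), or 1.28-fold higher in PD5, and 0.46 without PD5 207. Adamts1, which cuts versican and aggrecan, was at 8.95, 9.09, 8.76 and 9.04 in PD5 207, 209, 210 and 212, and at 8.74, 8.99, 8.55 and 8.68 in SHR 213, 215, 218 and 219. The strains overlapped, with SHR 215 above 2 of the PD5 animals. The difference was 0.22 (SE 0.11).

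Single probe sets show how far each gene value rests on all parts of the transcript. In Timp4 all 7 probe sets were lower in PD5, and in 6 of them every PD5 animal was below every SHR animal. The differences of those 6 ran from -1.37 to -0.90, and the remaining, dimmest probe set was at -0.36. In Adamts15 all 10 were lower, from -1.17 to -0.47, with no overlap in 7. Over all probe sets that name 1 gene, PD5 was wholly below SHR in 1.48% and wholly above in 1.47%. In Timp3 all 9 probe sets were lower, between -0.26 and -0.10, with no overlap in 1. In Adamts1 all 11 were higher, between 0.05 and 0.42, and the strains overlapped in each. Of 13 probe sets of Mmp9, 8 were lower and 5 higher, and PD5 was wholly below SHR in 2. For Mmp14 PD5 was wholly above SHR in 1 of 13, at 0.86, and the lowest of its differences was -0.55. In Adamts4 the widest difference, 1.04, came from the only 1 of its probe sets without overlap. That probe set was at 5.02 and 4.31 in SHR 218 and 219 and at 6.16 or above in the other 6 animals. Probe sets of a gene share the same animals and are not replicates of the strain difference.

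**Figure D2:**
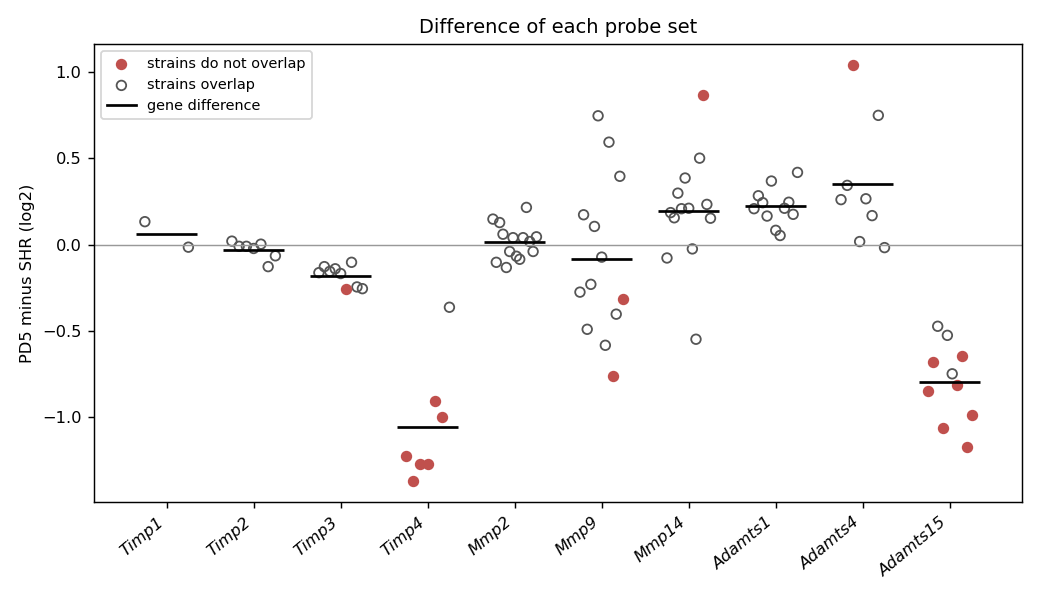
PD5 minus SHR (log2, vertical axis) for each of the 94 probe sets, grouped by gene, with filled points where the 4 PD5 and 4 SHR animals do not overlap and a bar at the gene difference. Timp4 has 6 of 7 and Adamts15 has 7 of 10 filled points, all below 0.

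Of the inhibitor genes, 3 are nested in synapsin genes, which encode synaptic vesicle proteins, and this gives a measurement the choice of genes did not use. In the RefSeq table Timp1 overlaps Syn1, Timp3 overlaps Syn3 and Timp4 overlaps Syn2. Syn2, the host of Timp4, averaged 5.98 ± 0.16 in the PD5 and 5.93 ± 0.16 in the SHR animals (SD, n = 4 each). Its difference was 0.05 (SE 0.11, 95% interval -0.19 to 0.29, adjusted p = 0.992 in limma). Syn2 lay below the array medians of 6.93 to 6.98, and at such low values a strain difference is hard to see. Its value therefore says little about the locus. The values were 0.10 (SE 0.10) for Syn1 and -0.03 (SE 0.10) for Syn3, and neither passed. The genes next to Timp4 on chromosome 4 are Pparg, a nuclear receptor of fat metabolism, and Tamm41, a mitochondrial lipid enzyme. Pparg was at -0.24 (SE 0.11, adjusted p = 0.873) and Tamm41 at -0.16 (SE 0.10, adjusted p = 0.966). Neither passed. Tamm41 was at 0.10 with the median of its probe sets and at 0.07 with the brightest one, so it had no stable direction.

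Adamts15 lies on chromosome 8, the chromosome of Zbtb16, around which the PD5 segment is known to lie, but 316 protein-coding genes stand between them in the RefSeq table. How far the segment reaches was not analysed here. Snx19, the neighbour of Adamts15 that was measured, was at 0.07 (SE 0.09, 95% interval -0.13 to 0.26, adjusted p = 0.992). Adamts5, the neighbour of Adamts1 on chromosome 11, was at 0.11 (SE 0.08, adjusted p = 0.978). Of 21 measured genes that overlap or adjoin one of the 10, 0 passed in limma, where 0.052% of all genes passed, so nothing is read from that count. Cyyr1, on the other side of Adamts1, had PD5 wholly above SHR, at 0.12 (SE 0.06). The same held for 1.59% of all genes, and 3.49% did not overlap in either direction. These neighbours were looked up after the strain comparison was known.

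The rest of the matrix protease system gives the setting for these values. Of 85 further genes in 8 lists, 45 were lower and 40 higher in PD5, with a median difference of -0.01, against 8668 lower and 8641 higher and a median of 0.00 over all genes. In limma 0 of the 85 passed in either direction, and the smallest adjusted p was 0.761. An unadjusted p under 0.05 was found for 3 of the 85 (3.53%), against 5.68% of all genes. The strains did not overlap in 1 of the 85 (1.18%), against 3.49% of all genes. That 1 was the elastin gene Eln, at -0.14 (SE 0.07) and at -0.43 with its brightest probe set alone.

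Among 17 other metalloproteinases, 6 were lower and 11 higher, with a median of 0.05. Mmp12, the macrophage elastase, had the widest difference, 0.28 (SE 0.11, adjusted p = 0.775), followed by the dim Mmp3, a stromelysin, at 0.16 and Mmp15, a membrane-type enzyme, at 0.11. With the median of its probe sets Mmp12 was at -0.08, so its direction was not stable. Mmp3 was at 0.73 with its brightest probe set, 0.30 without PD5 210 and 0.09 without PD5 212. Among 11 other ADAMTS proteases, 5 were lower and 6 higher, with a median of 0.03. Adamts9, which cuts versican, was at -0.20 (SE 0.08, adjusted p = 0.835), Adamts17 at -0.12 and Adamts5, also named aggrecanase-2, at 0.11. The 5 ADAMTS-like proteins, which lack a protease domain, had a median of -0.05, with 3 lower and 2 higher. Adamtsl2 was at -0.29 (SE 0.14), Adamtsl5 at 0.11 and Adamtsl1 at -0.08.

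Of 9 genes of membrane ADAM proteins, most but not all of them proteases, 6 were lower and 3 higher, with a median of -0.02. Adam8 was at -0.28 (SE 0.18), the dim Adam22 at -0.23 (SE 0.11) and Adam19 at 0.17 (SE 0.11). With dim probe sets left out Adam22 was at 0.185. Without PD5 210 Adam8 was at -0.09, and without SHR 219 Adam19 was at 0.08. Of 12 other inhibitors and activators, 6 were lower and 6 higher, with a median of 0.01. Tfpi2, a protease inhibitor of the matrix, was at 0.18, and the testican genes Spock3 and Spock2 were at 0.15 and -0.14. Spock3 was dim, and with dim probe sets left out it was at 0.02. In the plasminogen system 6 of 8 genes were lower and 2 higher, with a median of -0.03. Plau, which encodes urokinase, was at -0.24 (SE 0.08, adjusted p = 0.761), Serpinf2, which encodes the inhibitor antiplasmin, at 0.21 and Plat, tissue plasminogen activator, at -0.17.

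Of 6 cathepsin and cystatin genes, 4 were lower and 2 higher, with a median of -0.02. Ctss was at -0.15, Ctsd at 0.06 and Ctsk at -0.03. Of 17 substrate genes, 9 were lower and 8 higher, with a median of -0.01. Beside Eln, the widest differences were 0.12 in Hapln1, a link protein of hyaluronan and proteoglycans, and -0.09 in Lama2, a laminin chain. Versican itself, Vcan, was at 0.03 (SE 0.09). Vcan was singled out with its value known, as a substrate of Adamts1 and Adamts15, and it was at -0.20 with its brightest probe set and -0.03 without SHR 215. Of the 24 genes with the 3 widest differences of each list, 10 turned direction in at least 1 alternative: Mmp12, Adamts9, Adamts17, Adamtsl5, Adam22, Spock2, Spock3, Plau, Plat and Ctsk. Each of the 24 moved by over 1.5 times in at least 1 alternative, and 18 did so when 1 array was left out.

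**Figure D3:**
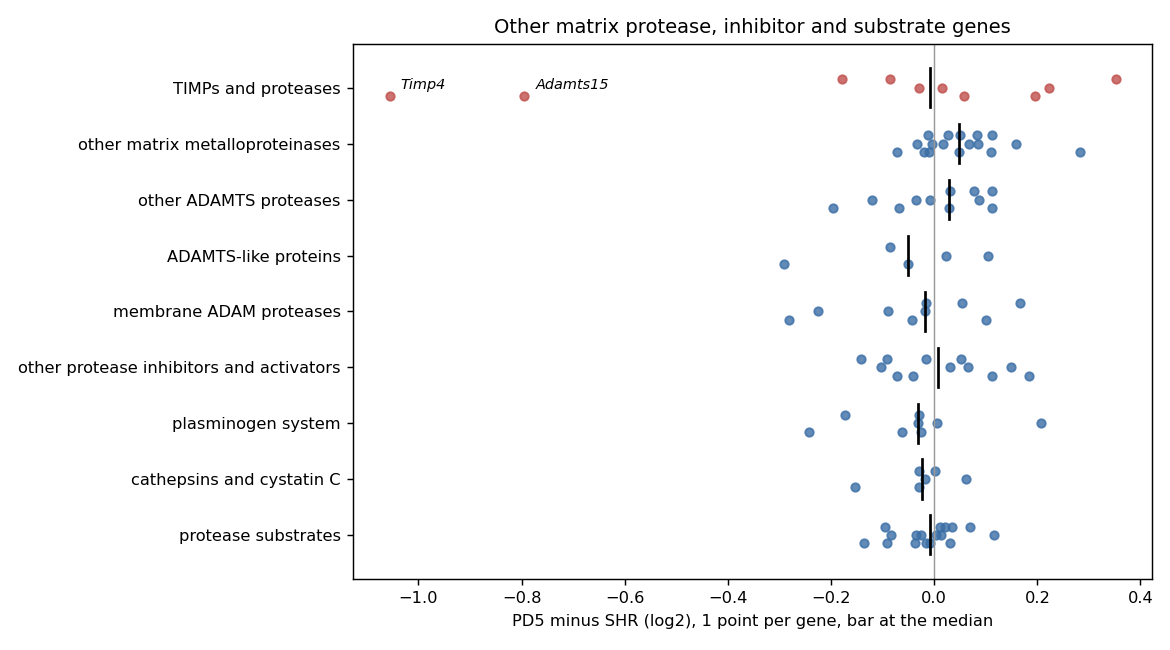
PD5 minus SHR (log2, horizontal axis) for the 10 TIMP and protease genes in the top row and for 85 other genes in 8 lists, with 1 point per gene and a bar at each median. Timp4 at -1.06 and Adamts15 at -0.79 lie to the left of the other points, and list medians lie between -0.05 and 0.05.

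Genes whose values followed Timp4 and Adamts15 over the 8 arrays were ranked by Pearson's r among 14282 genes with at least 3 probe sets. As the 2 strains differ in both genes, any gene with a like strain difference ranks high, and the ranking is a description. Most like Timp4 were Tsc22d3 (r = 0.988), Ccr1 (0.984), Plxna2 (0.981) and Nfkbia (0.979). Tsc22d3 encodes the leucine zipper protein GILZ, Ccr1 a chemokine receptor, Plxna2 a semaphorin receptor and Nfkbia an inhibitor of NF-κB. Most like Adamts15 were Bcl2l1 (0.991), Ddit4 (0.986), Pdk4 (0.981) and Tob2 (0.980). Bcl2l1 encodes an inhibitor of apoptosis, Ddit4 an inhibitor of mTOR signalling, Pdk4 a pyruvate dehydrogenase kinase and Tob2 an antiproliferative protein. Adamts15 ranked 16 for Timp4, and Timp4 ranked 14 for Adamts15 (r = 0.958 for the pair). Strain differences were -0.61 for Tsc22d3, -0.69 for Ccr1, -0.36 for Plxna2 and -0.91 for Nfkbia. They were -0.55 for Bcl2l1, -1.03 for Ddit4, -0.64 for Pdk4 and -0.45 for Tob2.

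**Figure D4:**
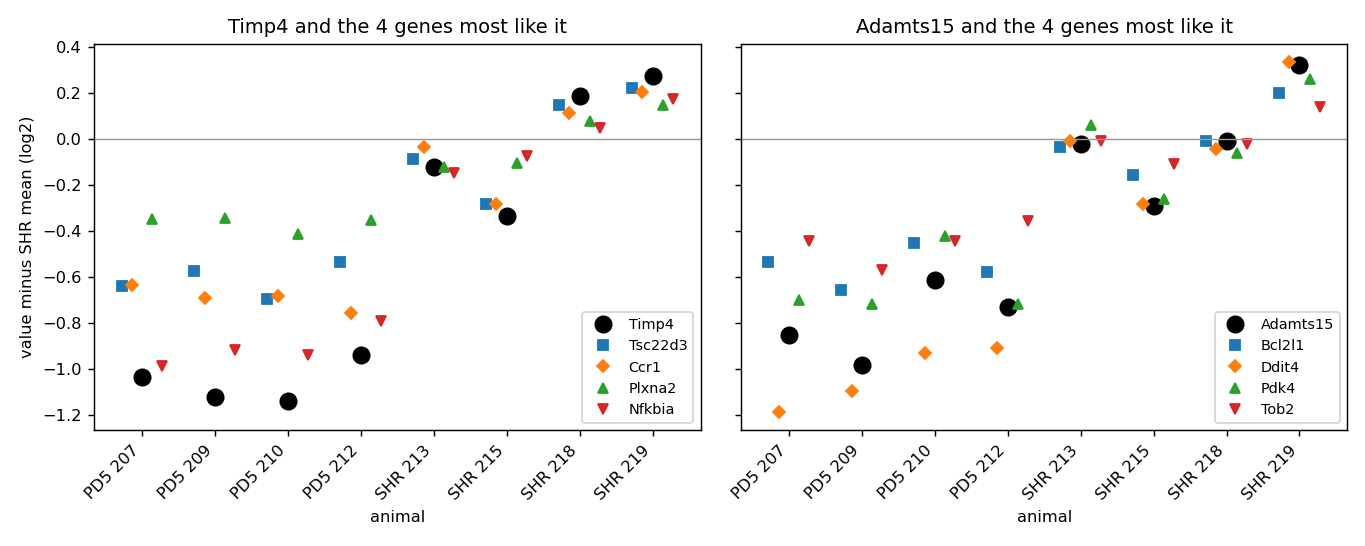
Values minus the SHR mean (log2, vertical axis) in each of the 8 animals for Timp4 (left) and Adamts15 (right), with the 4 genes most like each. In both panels all PD5 animals lie below all SHR animals, SHR 215 is the lowest and SHR 219 the highest SHR animal in both black series.

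Removing each strain's mean takes out the contrast that chose the genes and leaves the variation between animals of one strain. On that measure the genes most like Timp4 were Paep (r = 0.989), Rgs17 (0.982), Slc7a6 (0.980) and Mlph (0.973). Those most like Adamts15 were Ddt (0.978), Eci1 (0.974), Ndn (0.971) and Pla2g2d (0.969). These are the highest of 14282 values of r over 8 arrays, and so many genes can give such values without any relation. They were not tested. Timp4 had an SD of 0.09 in PD5 and 0.28 in SHR, so its r values rest mostly on the SHR animals. None of these 8 was among the 4 genes most like either one before the strain means were removed, and Adamts15 ranked 409 for Timp4.

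All 45 pairs of the 10 genes were compared on the same measure over 8 arrays, with an exact permutation of the animals within strains, two-sided. In 22 pairs r was above 0, and the median was -0.07. Mmp14 and Adamts1 varied together most closely, with r = 0.957 (exact permutation p = 0.00174, adjusted p = 0.0781) and Spearman's rho = 0.952 (exact p = 0.00347, adjusted p = 0.156). The first p is the smallest the 576 arrangements allow, so the pair could not pass over 45 pairs on its own, and 0 pairs passed. It was 1 of 45 with an unadjusted p under 0.05. Without SHR 215 and SHR 218, the arrays farthest from the median of Mmp14, r was 0.894. In both genes SHR 215 was the highest and SHR 218 the lowest SHR animal, and PD5 209 was the highest and PD5 210 the lowest PD5 animal.

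Timp4 and Adamts15, in contrast, had r = 0.724 (exact permutation p = 0.0990, adjusted p = 0.556) and rho = 0.619 (exact p = 0.181, adjusted p = 0.677). Without SHR 215 and SHR 219 the r was 0.07, so the relation within strains rests on those 2 animals. For Mmp14, r was -0.760 with Adamts15 (exact permutation p = 0.0781) and -0.743 with Timp4 (exact p = 0.0885), each with an adjusted p of 0.556. The rho was -0.738 with Adamts15 (exact p = 0.0799, adjusted p = 0.677) and -0.643 with Timp4 (exact p = 0.233, adjusted p = 0.781). With Adamts15, r was -0.850 without SHR 215 and SHR 218, the arrays farthest from the median of Mmp14. With Timp4, r was -0.504 without SHR 215 and SHR 219, the arrays farthest from the median of Timp4.

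**Figure D5:**
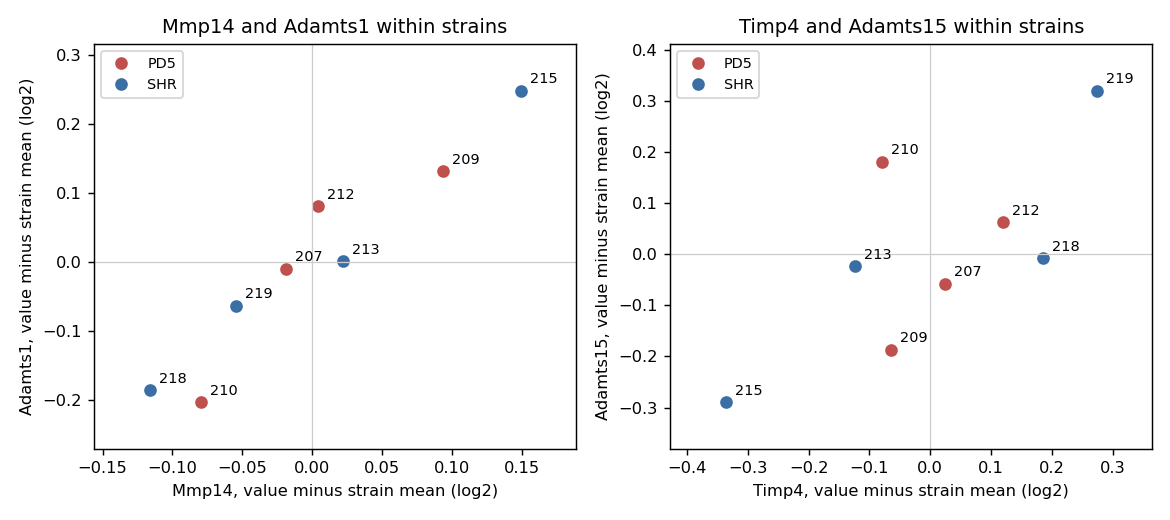
Values minus the strain mean (log2) of Mmp14 against Adamts1 (left) and of Timp4 against Adamts15 (right), with 1 point per animal, labelled by animal number. The left points lie near a line (r = 0.957), and the right points are scattered apart from SHR 215 and SHR 219.

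Averaged levels of some marker lists were lower in PD5, but no single gene of the macrophage, mesothelial or cartilage lists separated the strains. Of all 17309 genes, 8668 were lower in PD5. Macrophage markers, averaged over 6 genes, lay between 8.01 and 8.03 in PD5 and between 8.08 and 8.35 in SHR. Of these 6 genes, 5 were lower in PD5 and 0 passed, and SHR 219 was highest. The widest macrophage differences were -0.41 (SE 0.15) in Cd163 and -0.28 (SE 0.13) in Mrc1, while Cd68 was at 0.05 (SE 0.07). Mesothelial markers lay between 6.18 and 6.53 in PD5 and between 6.31 and 7.26 in SHR, with 6 of 6 lower, 0 passing and SHR 219 again highest. Adipocyte markers stood at 7.25 in PD5 210 and between 5.40 and 5.71 in the other 7 animals. Cartilage and valve markers were lower in 6 of 6, at 6.38 to 6.61 in PD5 and 6.58 to 6.69 in SHR, with 0 passing. Among them Cytl1 at -0.02 (SE 0.14) and Sox9 at -0.01 (SE 0.12) differed by less than their SEs. No array value is a true 0, and the markers dimmest on average were Ucp1 and Lep of the adipocytes, Matn3 of cartilage and S100a8 of granulocytes. Ucp1, a marker of brown fat, was at 9.05 in PD5 210 and between 3.79 and 4.83 in the other 7 animals. Their part in the differences of Timp4, Timp3 and Adamts15 was not tested. Without SHR 219 the differences were -0.96 for Timp4, -0.69 for Adamts15 and -0.15 for Timp3. Without PD5 210 they were -1.03, -0.85 and -0.14.

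Ranges of the averaged levels of the other lists overlapped between the strains. They were 12.47 to 12.53 in PD5 and 12.45 to 12.55 in SHR for cardiomyocytes (2 of 4 lower), and 10.38 to 10.42 and 10.32 to 10.52 for fibroblasts (2 of 6 lower). For endothelium they were 10.33 to 10.43 and 10.31 to 10.43 (1 of 4 lower), and for smooth muscle and pericytes 9.67 to 9.80 and 9.69 to 9.80 (3 of 4 lower). Granulocytes and mast cells, a known source of Mmp9, ran from 5.71 to 6.01 and from 5.84 to 6.05 (5 of 6 lower). No gene of these 5 lists passed in limma. The endothelial gene Vwf had PD5 wholly above SHR, at 0.16 (SE 0.06, adjusted p = 0.775 in limma), as had 1.59% of all genes.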

How the data were processed

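The deposited log2 values, 1 column per array, were made by the authors in Partek 6.6 (per the submitters' processing notes). How they corrected background, normalized and summarised is not given in these sources. Array medians ran from 6.93 to 6.98, so values were used as deposited. Of 220231 probe sets, the platform annotation named 1 gene for 166557, several for 1631 and none for 52043. Symbols were updated through the RefSeq gene table of GRCr8 (14377 current, 2837 replaced, 95 without match). The array annotation names no build, so that table served for names and neighbours only.

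A gene value is the mean of the probe sets that name that gene alone. limma 3.58.1 (lmFit, eBayes; R 4.3.3) was fitted to all 17309 genes for the strain difference. Two-sided p-values were adjusted over all of them by Benjamini-Hochberg, with a threshold of 0.05. SEs and 95% intervals come from that fit. Pairs of genes were tested within strains in Python 3.11.15. The fit was checked on simulated data.

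The members and lists were chosen with earlier results of these data known. Named genes are the 10 members, the 3 widest differences of each list and any gene that passed, and the 4 genes most like Timp4 and Adamts15 on each measure. Labels give each animal its own number but no litter, batch or date. The limma p-values set a strain difference against the spread between these animals, moderated over all genes. Those of the pairs place r or rho among its values over the arrangements of these animals. The number of arrays limits the precision. Alternatives were the median or the brightest of the probe sets, dim probe sets or dim genes (lowest 25%) left out, and array medians removed. Further ones were quantile normalization, a trended robust variance, and each array left out. In the gene fits, leaving out PD5 210 and SHR 219 together, chosen after seeing the data, was counted too. Dim genes were not left out for the 10 members, so their 15 alternatives hold that joint removal in its place.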

Additional observations from a re-analysis of the deposited data

Results flagged for a closer look

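In groups of 4 animals, 1 animal stood apart from the other 3 by Dixon's criterion in 5 of 158 groups examined, where chance alone gives about 1 in 20. Timp3 was at 11.26 in SHR 219 and between 11.14 and 11.15 in the other SHR animals. Adamtsl1 was at 7.07 in SHR 219 and between 6.87 and 6.89 in the others. Pdk4 was at 10.66 in PD5 210 against 10.36 to 10.38, and Plxna2 at 8.51 in PD5 210 against 8.57 to 8.58. The adipocyte marker level was 7.25 in PD5 210 against 5.40 to 5.60 in the other PD5 animals.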

How the results depend on the processing

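The 9 genes called over all genes became 0 with the brightest probe set (908 at an unadjusted p under 0.05 in limma), 5 with array medians removed and 47 with a trended robust variance (32 lower, 15 higher). The count ran from 1 to 7 with 1 array left out: 2 without PD5 207, 5 without PD5 209, 1 without PD5 210, 4 without PD5 212, 4 without SHR 213, 1 without SHR 218 and 3 without SHR 219. Without both PD5 210 and SHR 219, chosen after seeing the data, it was 0 (914 at an unadjusted p under 0.05). The cause was not tested. As a count of the fit across all genes, Timp4 was called with dim probe sets left out, quantile normalization, the trended robust variance and without SHR 215, and in none of the other 11 alternatives. Adamts15 was called in 1 of 15, the trended robust variance. Timp3, Timp4, Adamts15, Mmp9, Timp2, Mmp14, Adamts1 and Adamts4 kept their direction in all 15. Not all 15 could turn it. The trended robust variance leaves each difference as it was. Leaving out dim probe sets changed nothing in Timp2, Timp3, Timp4, Mmp14, Adamts1 and Adamts15, which had none. Removing array medians moved every gene by the same small amount. The 85 pathway genes gave 0 calls and the 45 pairs 0 adjusted calls in each alternative run. With 1 array left out, too few arrangements remain for a pair to pass. No paired analysis was possible because the strains share no animal number.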
